A study of Mus musculus with 12 samples.

Results

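Proteasome subunit genes were followed in the livers of wild-type and Atf6a-/- mice after vehicle or tunicamycin (TM). Members were all genes whose array symbol is Psma, Psmb, Psmc, Psmd, Psme, Psmf or Psmg with a number, and there were 47 of them among 18193 genes measured by probe sets of a single symbol. They comprised 16 core genes (Psma and Psmb), 20 regulatory genes (Psmc and Psmd), 6 immune and activator genes (Psmb8, Psmb9, Psmb10, Psme1, Psme3 and Psme4), 4 assembly genes (Psmg) and Psmf1. Where a gene had several probe sets, the one with the highest mean over the 12 arrays stood for it. Psme2 shares its single probe set with a second symbol, Psme2b, and was not used here.

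The proteasome is the main protease of the cytosol and nucleus, and it also degrades misfolded proteins that are pulled back out of the endoplasmic reticulum (ER). Alpha subunits form the outer rings and beta subunits the inner rings of a hollow core, in which Psmb5, Psmb6 and Psmb7 carry the proteolytic sites. A regulatory particle with an ATPase ring (Psmc) and a lid and base of non-ATPase subunits (Psmd) recognises ubiquitinated proteins, unfolds them and feeds them into the core. Under interferon, cells replace the catalytic subunits with Psmb8, Psmb9 and Psmb10 and make the activator subunit Psme1, and this immune form yields peptides for antigen presentation.

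The groups were wild-type mice given vehicle, Atf6a-/- mice given vehicle, wild-type mice given TM and Atf6a-/- mice given TM, with 3 animals each. TM blocks N-linked glycosylation and so causes ER stress, and ATF6a is an ER membrane protein that is cleaved under such stress to release a transcription factor. All animals received an intraperitoneal injection in dextrose, which alone was the vehicle, and TM was given at 1 mg/kg. Livers were taken after 34 h from mice that had been bred in house and fasted for 4 h, that were of either sex and of varying age, and whose own age and strain are not given in the sources used here. Each array measured RNA of a whole liver homogenate of 1 animal, so the values cover all cell types of the organ.

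The deposited values were log2 levels normalised across arrays, and a difference of 1 on this scale is a 2-fold change. A gene was called when its Benjamini-Hochberg adjusted p in limma, fitted to all 12 arrays and adjusted over 45037 probe sets, was under 0.05 and its difference exceeded 1.5-fold. Errors of differences are standard errors of that fit. The 2 TM responses and the comparison of genotypes after TM share arrays, so their values are given side by side and are not independent of each other. The brightest Atf6 probe set ranged from 8.42 to 8.54 in wild-type vehicle livers and from 6.60 to 6.88 in Atf6a-/- vehicle livers. In TM livers it ranged from 9.30 to 9.72 (wild-type) and from 9.23 to 9.81 (Atf6a-/-). Which part of Atf6 is deleted is not given in the sources used here, so after TM this probe set does not check the genotype labels. Hepatocyte markers summed to log2 levels of 15.62 or more on every array. The 3′ minus 5′ difference of the actin controls, a check of RNA integrity, was 1.00 to 1.32 in vehicle livers. It was 1.12 to 1.20 in wild-type and 0.88 to 1.00 in Atf6a-/- livers after TM, and these 2 ranges were apart. Its part in the comparison of genotypes after TM was not tested. Xist, an RNA of female cells, read 12.19 to 12.39 in animal 1 of the vehicle groups and of the Atf6a-/- TM group and 5.37 to 6.68 in all other livers, including all 3 of the wild-type TM group. Comparisons with that group are thus unbalanced in this marker. With Xist level as a covariate, Psmb3 lost its call in the wild-type response (adjusted p = 0.0519) and Psmc1 its call for the difference between the 2 responses (0.0555), and between genotypes after TM the calls rose from 21 to 24, with Psmb10, Psmc4 and Psmd12 added.

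Because pairs of catalytic subunits and the regulatory subunit Psmd8 carry the contrasts described below, the 250 bases before their transcription start are shown. Sequences are RefSeq windows of build GRCm38.p6, written 5′ to 3′ on the strand of the gene, with matches to TGACNNNGC (the core of the antioxidant response element), TTCNNNGAA (a gamma-activated site) or CCAAT on either strand in capitals.
Psmb5 (chr14:54617996-54618245, minus strand): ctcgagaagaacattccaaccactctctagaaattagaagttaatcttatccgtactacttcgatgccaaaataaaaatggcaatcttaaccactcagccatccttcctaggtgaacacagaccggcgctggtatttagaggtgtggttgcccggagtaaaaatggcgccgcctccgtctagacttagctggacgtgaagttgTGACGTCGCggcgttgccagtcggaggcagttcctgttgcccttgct
Psmb8 (chr17:34197945-34198194, plus strand): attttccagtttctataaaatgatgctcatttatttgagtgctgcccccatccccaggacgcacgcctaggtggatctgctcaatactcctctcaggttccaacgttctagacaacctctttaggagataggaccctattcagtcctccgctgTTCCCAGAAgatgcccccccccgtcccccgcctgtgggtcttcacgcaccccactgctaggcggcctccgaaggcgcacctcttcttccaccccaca
Psmb6 (chr11:70525107-70525356, plus strand): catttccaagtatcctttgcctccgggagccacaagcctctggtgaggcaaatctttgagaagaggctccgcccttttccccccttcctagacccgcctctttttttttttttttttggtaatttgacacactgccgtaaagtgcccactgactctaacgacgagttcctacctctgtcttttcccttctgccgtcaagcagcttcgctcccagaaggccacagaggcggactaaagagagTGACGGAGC
Psmb9 (chr17:34187331-34187580, minus strand): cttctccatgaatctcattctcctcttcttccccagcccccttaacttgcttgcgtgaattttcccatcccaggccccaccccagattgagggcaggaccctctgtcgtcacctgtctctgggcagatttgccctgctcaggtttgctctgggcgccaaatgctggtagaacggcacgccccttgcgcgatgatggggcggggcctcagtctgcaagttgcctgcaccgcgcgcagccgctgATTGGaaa
Psmd8 (chr7:29180674-29180923, minus strand): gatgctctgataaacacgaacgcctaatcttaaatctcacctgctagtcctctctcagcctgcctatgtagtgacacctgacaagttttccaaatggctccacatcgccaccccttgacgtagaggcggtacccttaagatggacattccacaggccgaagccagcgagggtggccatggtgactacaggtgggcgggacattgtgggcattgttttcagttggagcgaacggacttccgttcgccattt

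The window of Psmb5 held TGACNNNGC with its first base at -47 from the start, and that of Psmb6 held it at -9. The window of Psmb8 held TTCNNNGAA at -97, that of Psmb9 held CCAAT on the opposite strand, and that of Psmd8 held none of the 3 motifs. Over 300-base windows, which also include 50 bases after the start, 39 proteasome genes had 41 windows. TGACNNNGC was in 14.6% of these windows and in 12.4% of all 32851 windows, in Psmb5, Psmb6, Psmc6, Psmd9, Psmd12 and Psme4. TTCNNNGAA was in 7.32% against 8.3% (Psmb8, Psmd2 and Psmg1), and CCAAT was in 34.1% against 37.4%. CCACG, the end of the ER stress response element, was in 39% of proteasome windows and in 32.8% of all windows. The ATF4 composite site TGATGNAA was in 2.44% against 3.97%, in Psmd13 alone. Neither the unfolded protein response element TGACGTGG nor the cAMP response element TGACGTCA was in a proteasome window, and 0.676% and 1.79% of all windows held them. These are matches of letters, in shares close to those of all genes.

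With the deposited scaling, TM lowered the interferon-inducible subunits and a part of the constitutive proteasome in wild-type livers. Of the 47 genes, 13 fell and 1 rose, where 3.86% of all genes were called lower and 3.45% were called higher. In Atf6a-/- livers, 11 rose and 5 fell, where 15.2% of all genes were called higher and 12.8% lower. These directions depend on the scaling. With the arrays shifted by the reference genes Btf3 and Ppia, 5 were called higher and 11 lower in Atf6a-/- livers. A shift by spike-ins gave 32 higher and 4 lower in Atf6a-/- livers, and 5 higher and 4 lower in wild-type livers. In the deposited values both genotypes lowered Psmb8, Psmb9, Psmb10, Psme1 and the dim Psmb11 and raised Psmd8. By the call, 10 genes rose in Atf6a-/- livers alone and 8 fell in wild-type livers alone. None of these 8 kept its call with the shift by spike-ins. Calls in one genotype and not in the other do not by themselves show a difference, which is tested below by the interaction.

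**Figure D1:**
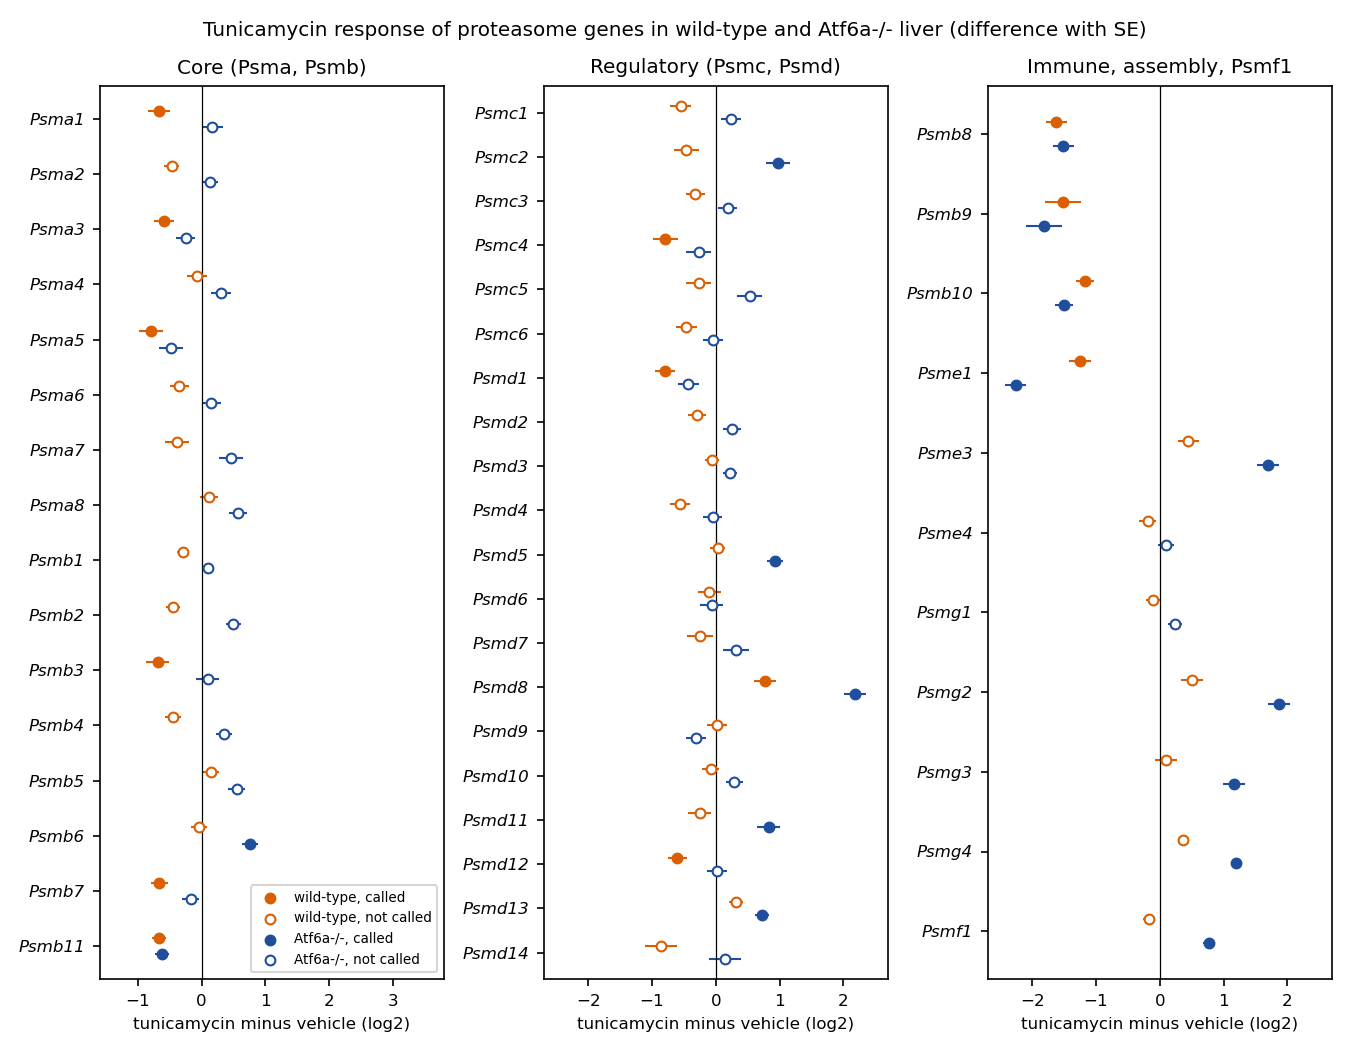
Difference between TM and vehicle (horizontal axis, log2) for each of the 47 proteasome genes in wild-type (orange) and Atf6a-/- (blue) livers, with bars for the SE and filled points for called genes. Core and regulatory genes lie mostly left of 0 in wild-type livers (30 of 36) and right of 0 in Atf6a-/- livers (26 of 36). Psmb8, Psmb9, Psmb10 and Psme1 lie left of 0 in both. In at least 1 other scaling the sign turned for 16 of the 47 genes in wild-type and 28 in Atf6a-/- livers, none of them called.

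Core subunits had a median difference of -0.45 in wild-type livers after TM, against -0.02 over all genes. Of 16 core genes, 6 were called lower and none higher, where 3.86% of all genes were called lower and 3.45% higher. Psmb7, the subunit with trypsin-like activity, read 11.80, 11.94 and 12.06 in wild-type livers after vehicle and 11.36, 11.40 and 11.06 after TM. All TM values lay under all vehicle values, and the difference was -0.66 ± 0.13 (adjusted p = 0.00753). The alpha-ring subunit Psma5 read 10.61, 10.94 and 11.15 after vehicle and 9.84, 10.53 and 9.98 after TM. Its groups were likewise apart, and it changed by -0.79 ± 0.19 (adjusted p = 0.0272). The beta-ring subunit Psmb3, which has no proteolytic site, changed by -0.69 ± 0.18 (adjusted p = 0.039), and the alpha subunits Psma1 and Psma3 changed by -0.67 ± 0.17 and -0.59 ± 0.15. Psmb11, a thymus-specific subunit, made up the remaining call (-0.67) and was also called in Atf6a-/- livers (-0.62), but it read 4.19 to 4.42 and 4.07 to 4.18 after TM, under the highest array median of 4.71, so no fold was taken from it.

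Psmb5, with chymotrypsin-like activity, and Psmb6, with caspase-like activity, were not called lower in wild-type livers. Psmb6 read 11.17, 11.16 and 11.24 in wild-type livers after vehicle and 11.04, 11.40 and 11.00 after TM, and these values overlapped. In Atf6a-/- livers it went from 11.23, 11.26 and 10.95 to 11.81, 12.00 and 11.91, a rise of 0.76 ± 0.12 (adjusted p = 4.30e-04). It was the single core gene called higher there, where 15.2% of all genes were called higher. Psmb5 read 11.08, 11.09 and 10.81 after vehicle and 11.51, 11.78 and 11.35 after TM in Atf6a-/- livers. Its groups were apart and its adjusted p was 0.00575, but the difference of 0.55 ± 0.13 stayed under the 1.5-fold minimum. The median of the 16 core genes in Atf6a-/- livers was 0.16, and Psma8, a testis-specific subunit, was under the highest array median on all 12 arrays.

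Regulatory subunits had a median difference of -0.28 in wild-type and 0.23 in Atf6a-/- livers. Psmd1, a scaffold of the base that binds a ubiquitin receptor, read 9.53, 9.68 and 9.72 in wild-type livers after vehicle and 8.66, 9.25 and 8.62 after TM. Every TM value was lower than every vehicle value, and the difference was -0.80 ± 0.16 (adjusted p = 0.0101). The ATPase Psmc4 changed by -0.79 ± 0.20 (adjusted p = 0.0356) and the lid subunit Psmd12 by -0.60 ± 0.15 (adjusted p = 0.0337). Psmd14, the deubiquitinase of the lid, had the largest negative difference of the class (-0.86 ± 0.25), but its groups overlapped and it was not called (adjusted p = 0.0679).

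The 8 constitutive genes called lower in wild-type livers alone were picked by that call. Their TM and vehicle values were apart, which is no further support, and most of these calls were lost with fewer animals. Without wild-type vehicle animal 2 or 3, or without wild-type TM animal 1 or 3, the calls of Psma1, Psma3, Psma5, Psmb3, Psmc4 and Psmd12 were each lost, with adjusted p from 0.0509 to 0.149. Psma3 and Psmc4 also lost their calls without wild-type TM animal 2 (adjusted p = 0.0626 and 0.0598), Psma1, Psmb3 and Psmc4 without Atf6a-/- vehicle animal 2 (0.0506, 0.0562 and 0.0517) and Psmb3 without Atf6a-/- TM animal 1 (0.0544). Psmb7 fell under the minimum fold without wild-type TM animal 3 (-0.55). With these 4 libraries left out in turn, 7 to 8 of the 47 genes were called in place of 14. Psmd1 kept its call without each animal. With all probe sets of a gene averaged, Psma1 (-0.35), Psma3 (-0.41) and Psma5 (-0.43) came under the minimum fold. Quantile normalisation repeated brought Psma3 (-0.45) and Psmb7 (-0.53) under it. Centring on array medians lost Psma3 (-0.58, under the minimum fold), Psmb3 (adjusted p = 0.0594) and Psmd12 (adjusted p = 0.0513). Wild-type TM animal 2 stood apart from the other two: its median difference from the vehicle mean over regulatory genes was 0.00, against -0.45 and -0.49 in animals 1 and 3.

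Psmd8, a lid subunit that joins late in assembly, was the single proteasome gene called higher in both genotypes in the deposited values. Vehicle livers read 10.60, 10.68 and 10.82 when wild-type and 10.75, 10.86 and 10.57 when Atf6a-/-. TM livers read 11.38, 11.87 and 11.15 when wild-type and 12.66, 13.05 and 13.01 when Atf6a-/-. The 2 TM groups lay above both vehicle groups, and no Atf6a-/- TM value came down to a wild-type TM value. The wild-type rise was 0.77 ± 0.17 (adjusted p = 0.0192) and the Atf6a-/- rise 2.18 ± 0.17 (adjusted p = 1.78e-06), which is 1.70-fold and 4.53-fold. Wild-type livers lost this call without vehicle animal 1 or 2 (adjusted p = 0.067 and 0.064) and, by the minimum fold, without TM animal 2 (0.57).

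Other regulatory genes rose in Atf6a-/- livers and had no call in wild-type livers. Psmc2, an ATPase of the ring, read 10.97, 10.88 and 10.67 after vehicle and 11.63, 11.92 and 11.91 after TM in Atf6a-/- livers. It rose by 0.98 ± 0.19 (adjusted p = 0.00193), while in wild-type livers it was 10.28, 11.01 and 10.12 after TM, overlapping its vehicle values of 10.82, 11.01 and 10.96. Psmd5, a chaperone of base assembly, rose from 8.31, 8.33 and 8.23 to 9.02, 9.46 and 9.17 in Atf6a-/- livers (0.93 ± 0.12, adjusted p = 6.97e-05). Its wild-type difference was 0.03 ± 0.12. The lid subunit Psmd11 went from 11.66, 11.55 and 11.30 to 12.14, 12.48 and 12.38 in Atf6a-/- livers (0.83 ± 0.18, adjusted p = 0.00356), and 3 of its 5 other probe sets above the array medians were called the same way. Psmd13, another lid subunit, rose by 0.73 ± 0.11 (adjusted p = 2.83e-04), but its probe sets disagreed: the 3 others, with mean levels of 8.59, 5.45 and 5.61, differed by 0.59, 0.85 and -1.19, each passing the test. The mean of the Psmd13 probe sets gave 0.25 (adjusted p = 0.0713).

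**Figure D2:**
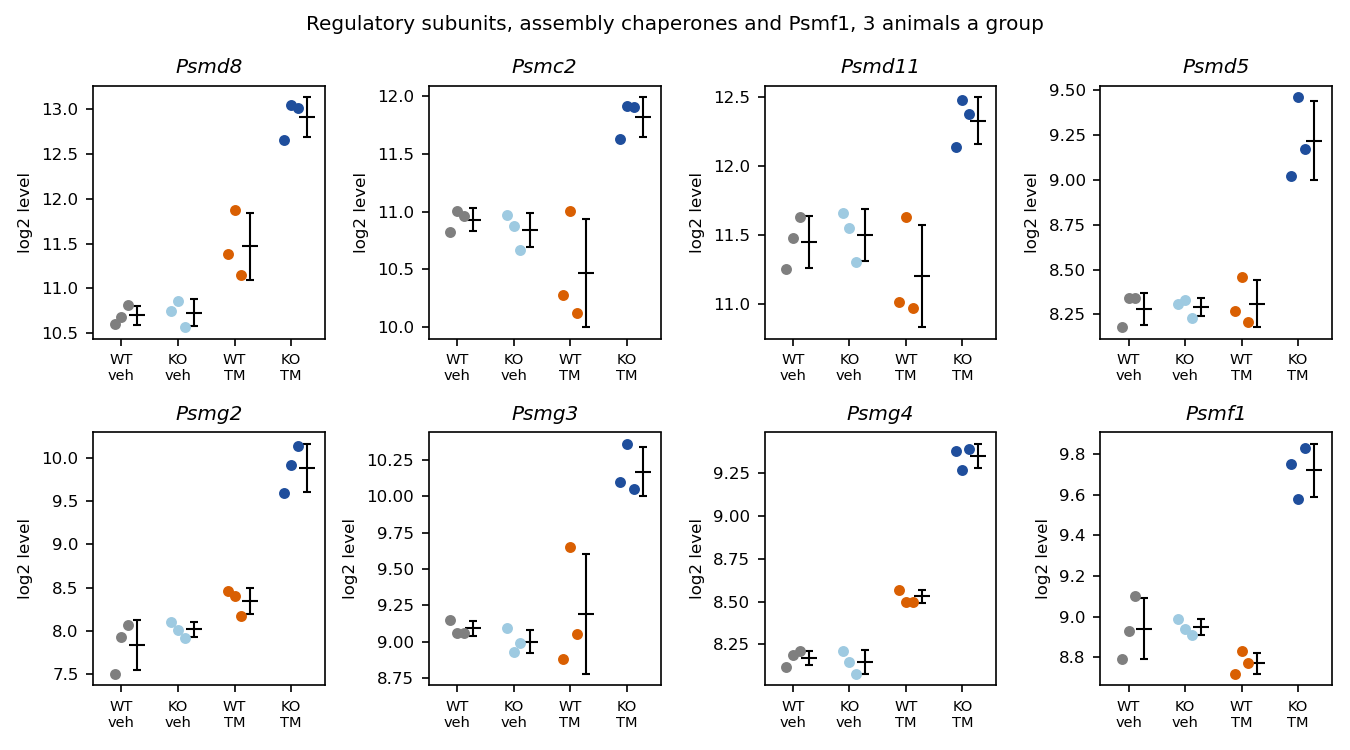
Log2 level (vertical axis, scale differs by panel) of 7 regulatory and assembly genes and of Psmf1 by liver, each of the 3 animals of a group being a point (WT, wild-type; KO, Atf6a-/-; veh, vehicle) and a bar for the mean and SD. The 3 Atf6a-/- TM livers lie above all other livers in every panel, and wild-type TM animal 2 (middle point) is the highest of its group for Psmd8, Psmc2, Psmd11, Psmd5, Psmg3 and Psmf1.

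Core assembly is aided by the chaperone pairs Psmg1 with Psmg2 and Psmg3 with Psmg4, which act on the alpha ring. Of these 4 genes, Psmg2, Psmg3 and Psmg4 rose in Atf6a-/- livers, where 15.2% of all genes were called higher, and the class median was 1.18. Psmg2 read 8.11, 8.01 and 7.92 after vehicle and 9.59, 9.92 and 10.14 after TM in Atf6a-/- livers, a rise of 1.87 ± 0.17 (adjusted p = 4.33e-06). In wild-type livers it was 7.51, 7.93 and 8.07 after vehicle and 8.46, 8.40 and 8.17 after TM. These groups were apart but the difference was not called (0.51 ± 0.17, adjusted p = 0.10). Psmg4 went from 8.21, 8.15 and 8.08 to 9.38, 9.27 and 9.39 in Atf6a-/- livers (1.20 ± 0.08, adjusted p = 5.07e-07). In wild-type livers it went from 8.12, 8.19 and 8.21 to 8.57, 8.50 and 8.50, a difference that passed the test but not the minimum fold (0.36 ± 0.08, adjusted p = 0.0193). Psmg3 rose from 9.09, 8.93 and 8.99 to 10.10, 10.36 and 10.05 in Atf6a-/- livers (1.16 ± 0.17, adjusted p = 1.90e-04), and in wild-type livers its difference was 0.10 ± 0.17 with overlapping groups. Psmg1 was not called in either genotype (-0.11 ± 0.11 and 0.24 ± 0.11). Psmf1, which encodes the proteasome inhibitor protein, went from 8.99, 8.94 and 8.91 to 9.75, 9.58 and 9.83 in Atf6a-/- livers (0.77 ± 0.10, adjusted p = 8.75e-05) and differed by -0.17 ± 0.10 in wild-type livers. Averaged over all probe sets of a gene, the Atf6a-/- response fell under the minimum fold for Psmg3 (0.53), Psmf1 (0.45) and Psmd11 (0.48).

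Interferon-inducible subunits fell in both genotypes. Psmb8, which takes the place of Psmb5, went from 8.64, 8.64 and 9.11 with vehicle to 7.18, 7.08 and 7.29 with TM in wild-type livers. Atf6a-/- livers went from 8.50, 8.38 and 8.60 to 7.27, 6.97 and 6.72. All 6 TM values lay below all 6 vehicle values, with differences of -1.62 ± 0.16 (adjusted p = 1.20e-04) and -1.51 ± 0.16 (adjusted p = 1.60e-05). Psmb9, which takes the place of Psmb6, went from 7.84, 8.07 and 8.86 to 7.17, 6.30 and 6.75 in wild-type livers, and from 8.17, 7.73 and 8.29 to 6.55, 6.07 and 6.10 in livers without Atf6a. Its groups were also apart (-1.52 ± 0.28, adjusted p = 0.006, and -1.82 ± 0.28, adjusted p = 2.95e-04). Psmb10, which takes the place of Psmb7, went from 9.65, 9.38 and 9.76 to 8.30, 8.37 and 8.62 in wild-type livers (-1.17 ± 0.14, adjusted p = 4.86e-04). In Atf6a-/- livers it went from 9.46, 9.25 and 9.37 to 8.03, 7.96 and 7.59 (-1.50 ± 0.14, adjusted p = 7.63e-06). The falls of Psmb8, Psmb9 and Psmb10 were called without each animal and under each of the 4 other scalings.

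**Figure D3:**
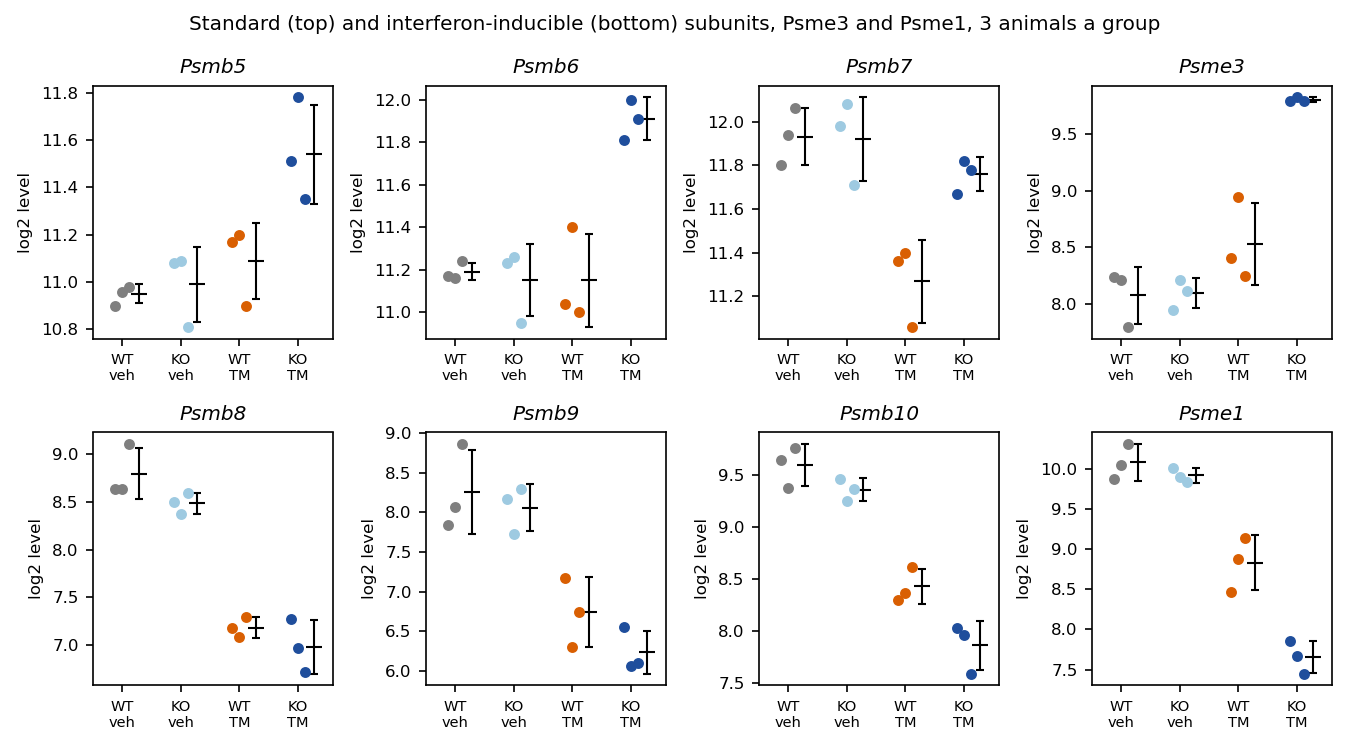
Log2 level (vertical axis, scale differs by panel) of the 3 standard catalytic subunits with Psme3 (top) and their interferon-inducible counterparts with Psme1 (bottom), each of the 3 animals of a group being a point (WT, wild-type; KO, Atf6a-/-; veh, vehicle) and a bar for the mean and SD. The TM livers of both genotypes lie below the vehicle livers for Psmb8, Psmb9, Psmb10 and Psme1, whereas Psmb5, Psmb6 and Psme3 are highest in the Atf6a-/- TM livers.

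Each inducible subunit was then set against its standard counterpart on the same array, which cancels any shift of the whole array. Psmb8 minus Psmb5 was -2.26, -2.32 and -1.86 in wild-type livers after vehicle and -3.99, -4.12 and -3.61 after TM. In Atf6a-/- livers this difference went from -2.58, -2.72 and -2.21 to -4.24, -4.81 and -4.63. The groups did not overlap, and the change was -1.76 ± 0.21 in wild-type and -2.06 ± 0.23 in Atf6a-/- livers. For Psmb9 minus Psmb6 the change was -1.48 ± 0.46 and -2.58 ± 0.32, also without overlap. For Psmb10 minus Psmb7 it was -0.51 ± 0.24 in wild-type livers, where the groups overlapped (exact permutation test, two-sided, p = 0.2), and -1.33 ± 0.22 in Atf6a-/- livers. Groups of 3 animals cannot go below p = 0.1 in this exact permutation test, which is what the other 5 changes reached. These are changes within a pair and not levels of one subunit against the other.

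Activator subunits differed in direction. Psme1, an interferon-inducible activator subunit, went from 9.87, 10.05 and 10.31 to 8.46, 8.88 and 9.14 in wild-type livers. It went from 10.01, 9.90 and 9.84 to 7.85, 7.67 and 7.45 in Atf6a-/- livers. The 4 groups formed 3 steps, with the vehicle livers highest, the wild-type TM livers below them and the Atf6a-/- TM livers lowest. The wild-type difference was -1.25 ± 0.17 (adjusted p = 0.00103) and the Atf6a-/- difference -2.26 ± 0.17 (adjusted p = 1.41e-06), which is 2.37-fold and 4.78-fold lower. Psme3, a nuclear activator of ubiquitin-independent degradation, went the other way in Atf6a-/- livers, from 7.95, 8.21 and 8.12 to 9.79, 9.82 and 9.79 (1.70 ± 0.17, adjusted p = 1.06e-05). In wild-type livers it read 8.24, 8.21 and 7.80 after vehicle and 8.41, 8.94 and 8.25 after TM, and its difference of 0.45 ± 0.17 was not called (adjusted p = 0.168). Psme4, another nuclear activator, was not called in either genotype (-0.19 ± 0.13 and 0.10 ± 0.13).

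Other genes of antigen processing and interferon signalling were read beside these subunits. Of 20 measured genes, 7 fell and none rose in wild-type livers, and 10 fell and none rose in Atf6a-/- livers, with medians of -0.40 and -0.76. Among all genes, 3.86% were called lower and 3.45% higher in wild-type livers, and 12.8% lower and 15.2% higher in Atf6a-/- livers. Tapbp, which loads peptide onto class I molecules, had a wild-type difference of -1.04 ± 0.15 (adjusted p = 0.0011) and an Atf6a-/- difference of -2.90 ± 0.15 (adjusted p = 6.82e-08). Ifit1, an interferon-induced gene, differed by -1.38 ± 0.31 and -1.46 ± 0.31. Irf2, an interferon regulatory factor, differed by -0.15 ± 0.18 in wild-type livers, where it was not called, and by -2.29 ± 0.18 in Atf6a-/- livers. Wild-type vehicle animal 3 was the highest of all 12 livers for Psmb8, Psmb9, Psmb10, Psme1 and Ifit1.

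Immune subunits are expressed at high levels in leukocytes, so markers of other liver cells were read on the same arrays. For the counts below, 3.86% of all genes were called lower and 3.45% higher in wild-type livers, and 12.8% and 15.2% in Atf6a-/- livers. Of 10 Kupffer cell and macrophage markers, 4 fell and 1 rose in wild-type livers and 5 fell and 2 rose in Atf6a-/- livers. In Atf6a-/- livers Cd68 (3.07 ± 0.34) and Marco (1.58 ± 0.49) rose, and the called falls ran from -0.76 (Adgre1) to -2.24 (Vsig4). The summed log2 level of the 10 markers thus mixes both directions. It ran from 12.21 to 12.51 with vehicle and from 11.51 to 11.88 with TM in wild-type livers. In Atf6a-/- livers it ran from 12.26 to 12.78 and from 11.78 to 12.08. The 7 measured lymphocyte markers, of which Cd3g and Ms4a1 were under the highest array median on all arrays, had no call in either TM response, and their sum lay between 8.53 and 9.10 on all arrays. Neutrophil markers summed to 7.82 to 8.14 over the vehicle livers, 8.58 to 9.33 in wild-type and 9.39 to 11.36 in Atf6a-/- livers after TM. Of 6 measured, 1 rose in wild-type and 2 in Atf6a-/- livers, led by S100a8 (2.31 ± 0.44 and 4.67 ± 0.44), while Mpo was under the highest array median on all arrays. Endothelial markers summed to 10.58 to 10.99 after vehicle and 9.97 to 10.33 after TM, stellate markers to 11.28 to 11.88 in all livers, and hepatocyte markers to 16.75 to 17.07 after vehicle, 16.36 to 16.74 in wild-type and 15.62 to 16.05 in Atf6a-/- livers after TM. The part of these shifts in the proteasome values was not tested, and in whole liver fewer cells of a type and less RNA per cell cannot be told apart.

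Genotypes were compared next. After vehicle, none of the 47 genes differed by the call, where 0% of all genes were called higher and 0.0055% lower. None reached an unadjusted p under 0.05 in limma either, nor was any called after Benjamini-Hochberg adjustment with the t-test of the study's methods. Their differences ran from -0.31 (Psmb8, ± 0.16) to 0.18 (Psmg2, ± 0.17).

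After TM, 20 of the 47 genes were higher and 1 was lower in Atf6a-/- than in wild-type livers, where 11.3% of all genes were called higher and 8.45% lower. The calls comprised 7 of 16 core genes, 8 of 20 regulatory genes, Psme3, 3 of 4 assembly genes and Psmf1, and the median difference over core and regulatory genes was 0.53, against 0.00 over all genes. Among core genes the largest were Psma1 (0.91 ± 0.17), Psma7 (0.89 ± 0.19), an alpha-ring subunit, and Psmb2 (0.87 ± 0.11), a beta-ring subunit without a proteolytic site. Psmb2 read 9.76, 9.94 and 9.70 in TM livers of wild-type mice and 10.64, 10.75 and 10.62 in those of Atf6a-/- mice, with vehicle values of 10.00 to 10.38 between them. Regulatory genes were led by Psmd8 (1.44 ± 0.17, adjusted p = 1.08e-04), Psmc2 (1.35 ± 0.19, adjusted p = 3.95e-04) and Psmd11 (1.13 ± 0.18, adjusted p = 7.81e-04). Psmd14 read 8.88, 9.91 and 8.91 in the wild-type group and 10.16, 10.46 and 10.32 in the Atf6a-/- group (1.08 ± 0.25, adjusted p = 0.00905). Psmg2 was 1.54 ± 0.17 and Psme3 1.27 ± 0.17 higher. Psme1 was the single gene called lower (-1.17 ± 0.17, adjusted p = 4.84e-04), whereas Psmb8 and Psmb9 overlapped between genotypes and Psmb10 stayed just under the minimum fold (-0.57 ± 0.14, adjusted p = 0.0144). In Psmd7, a lid subunit called at 0.61 ± 0.20, the groups overlapped, and its call held without wild-type vehicle animal 1, wild-type TM animal 2 or Atf6a-/- TM animal 1 and was lost without each of the other 9 animals (adjusted p from 0.0525 to 0.183). The calls of Psma2 (0.58 without Atf6a-/- TM animal 2 and 0.56 without wild-type TM animal 3) and Psmc5 (adjusted p = 0.0531 and 0.0607 without wild-type TM animal 1 or 3) were lost as well. With all probe sets of a gene averaged, 15 genes were called in place of 21, as Psma1 (0.46), Psmc1 (0.44), Psmd11 (0.58), Psmg3 (0.41) and Psmg4 (0.47) came under the minimum fold and Psmd7 (0.19, adjusted p = 0.0959) missed the test.

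The test of the difference between the 2 TM responses called 15 genes with a more positive and 1 with a more negative response in Atf6a-/- livers, where 7.56% and 6.69% of all genes were called in these directions. By class these were Psma1, Psma2, Psmb2, Psmb4 and Psmb6 of the core, Psmc1, Psmc2, Psmd5, Psmd8 and Psmd11 of the regulatory particle, Psme3 and, downward, Psme1, the chaperones Psmg2, Psmg3 and Psmg4, and Psmf1. The interaction was 1.44 ± 0.27 for Psmc2 (adjusted p = 0.00556), 1.41 ± 0.24 for Psmd8 (0.00319) and 1.36 ± 0.23 for Psmg2 (0.00321). Of the 8 genes called lower in wild-type livers alone, Psma1 had a called interaction (0.84 ± 0.24, adjusted p = 0.0407), and Psmb3, Psmb7, Psma3, Psma5, Psmc4, Psmd1 and Psmd12 did not. The interferon-inducible Psmb8, Psmb9 and Psmb10 had interactions of 0.11 ± 0.22, -0.31 ± 0.39 and -0.33 ± 0.20 and were not called, which does not show that their responses were alike. Without single animals, 11 of the 16 interactions remained called each time. The exceptions were Psma1, Psma2 and Psmc1, each lost without wild-type vehicle animal 2 or 3, wild-type TM animal 1 or 3, Atf6a-/- vehicle animal 2 or 3 or Atf6a-/- TM animal 2 or 3 (adjusted p from 0.0686 to 0.128) and Psma2 also without Atf6a-/- vehicle animal 1 (0.0571), and Psmd11 (0.0507) and Psme1 (0.0506), each lost without wild-type TM animal 3. With probe sets averaged, 12 interactions were called, without Psma1, Psmb4, Psmc1, Psmd11, Psmg3 and Psmg4 and with Psma7 and Psmb3 added.

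How far a subunit rose or fell depends on the level that is held constant across arrays. Hybridisation spike-ins had mean log2 levels of 8.81 to 9.21 after vehicle, 8.54 to 8.86 in wild-type and 8.43 to 8.50 in Atf6a-/- livers after TM, and shifting the arrays by them moved the median of all genes to 0.30 in wild-type and 0.48 in Atf6a-/- livers. Shifting by Btf3 and Ppia, the reference genes of the study's PCR, moved it to -0.10 and -0.53. In Atf6a-/- livers these reference genes were thus, on average, themselves higher after TM in the deposited values. The probe set that stood for Ppia also carries a second symbol. Core and regulatory genes had medians of -0.37 in wild-type and 0.21 in Atf6a-/- livers in the deposited values, -0.05 and 0.70 with spike-ins, and -0.44 and -0.31 with Btf3 and Ppia, so the sign in Atf6a-/- livers turned with the last. Between genotypes after TM their median was 0.53, 0.76 and 0.10. All called genes kept their sign in all 5 scalings. Calls held in all of them for Psmb8, Psmb9, Psmb10, Psme1 and Psmd8 in both genotypes, and in Atf6a-/- livers also for Psme3, Psmg2, Psmg3 and Psmg4. Between genotypes after TM they held for Psmc2, Psmd8, Psmd11, Psmd14, Psme1, Psme3 and Psmg2, and for the interaction in Psmc2, Psmd8 and Psmg2.

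**Figure D4:**
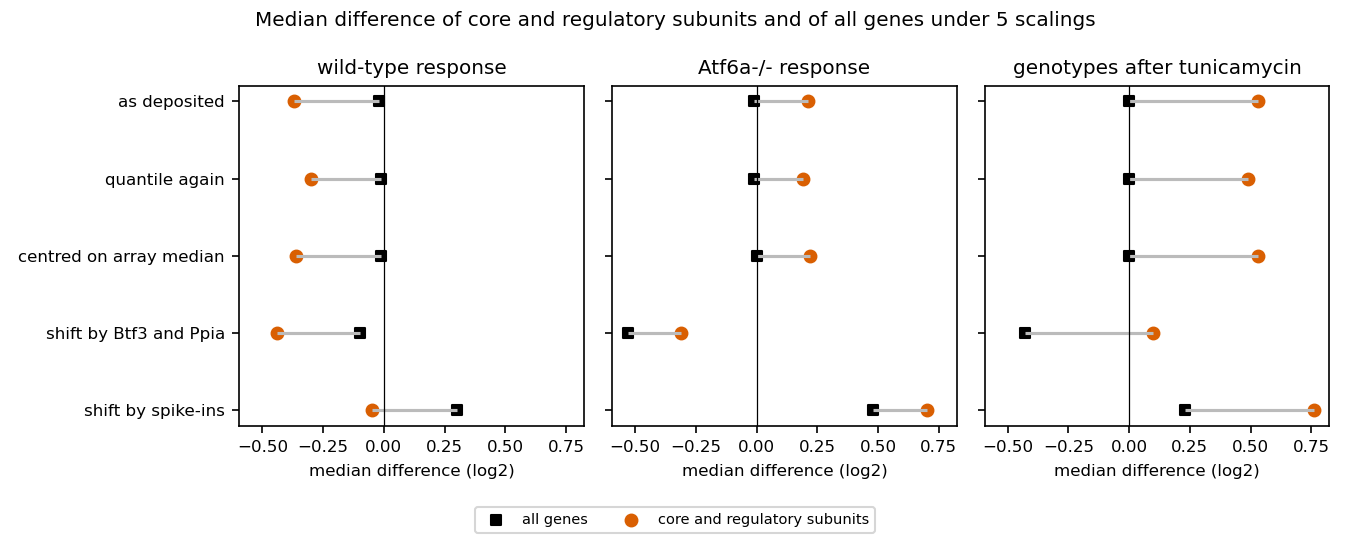
Median difference (horizontal axis, log2) over all genes (squares) and over the 36 core and regulatory genes (circles) under 5 scalings of the arrays, for both TM responses and for genotypes after TM. Circles lie left of squares in wild-type livers and right of squares in the other comparisons. Centring on array medians and both shifts move all genes of an array alike, so they cannot change this order. The position of the circles against 0 in Atf6a-/- livers turns with the shift by Btf3 and Ppia (-0.31).

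Genes that act with the proteasome were counted from 3 further lists. Over all genes, 3.45% were called higher and 3.86% lower in wild-type livers, and 15.2% higher and 12.8% lower in Atf6a-/- livers. Of 11 measured maturation and associated proteins, none was called in wild-type livers and 3 rose in Atf6a-/- livers, all of them zinc finger proteins of the ZFAND family that associate with ubiquitin or the proteasome under stress. Zfand5 read 9.89, 11.06 and 10.38 in TM livers of wild-type mice and 11.99, 12.68 and 12.38 in those of Atf6a-/- mice and rose by 2.04 ± 0.28 in the latter (adjusted p = 1.23e-04), Zfand2a rose by 1.81 ± 0.29 and Zfand2b by 1.02 ± 0.13. Pomp, the maturation factor of the core, differed by -0.56 ± 0.13 in wild-type (adjusted p = 0.025, under the minimum fold) and by 0.02 ± 0.13 in Atf6a-/- livers. Of 10 measured regulators of proteasome gene transcription, 2 rose in wild-type livers and 4 rose and 3 fell in Atf6a-/- livers. Nfe2l1, the factor that raises proteasome genes when the proteasome is inhibited, was not called (0.24 ± 0.12 and 0.34 ± 0.12). The related Nfe2l2 read 9.15, 8.98 and 8.77 after vehicle and 9.48, 9.95 and 9.71 after TM in Atf6a-/- livers (0.75 ± 0.17, adjusted p = 0.00439) and had an interaction of 1.20. The small Maf partners Maff (1.63 ± 0.41 and 1.65 ± 0.41) and Mafk (1.08 ± 0.27 and 1.64 ± 0.27) rose in both genotypes. Nfya rose in Atf6a-/- livers (1.09 ± 0.18), where Foxo3, a forkhead factor (-1.40 ± 0.10), Foxo4 (-0.63 ± 0.16) and Stat3 (-0.69 ± 0.20) fell. Of 9 measured ubiquitin and shuttle proteins, none was called in wild-type livers, and 3 rose and 1 fell in Atf6a-/- livers, led by Ufd1 (1.65 ± 0.18), a partner of the segregase VCP.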

How the data were processed

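Total RNA of 12 livers was labelled and hybridised by the authors to a 3′ expression microarray, 1 array per animal. The deposited values are log2 signals from RMA (background correction, quantile normalisation across arrays and summary of each probe set), with affy and limma named in the submitters' processing notes. They ranged from 2.38 to 14.91. No read depth exists for arrays, and the number of arrays limits the precision.

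Groups were taken from the sample titles, with 3 separate animals each. Of 45101 probe sets, 64 controls were left out, and 34945 carried 1 gene symbol in the platform annotation, 932 several and 9160 none. All 4 groups were fitted with limma 3.58.1 (lmFit, contrasts.fit, eBayes) in R 4.3.3 as 1 mean per group, two-sided, with Benjamini-Hochberg adjustment over all probe sets. A call needed an adjusted p under 0.05 and over 1.5-fold. The fit was tested on simulated data first. Full statistics went to up to 3 called genes with the largest rise and fall in each class and comparison and to all immune and assembly genes. The exception is values given to show where a call was lost or a counterpart was not called. Other lists named up to 3 called members, except that all called regulators of proteasome gene transcription were named. Pomp, Nfe2l1 and the further regulators were named after their values were seen. Members, lists and tests were chosen with earlier results of these data known. The authors' own group classification of probe sets was not used. Python 3.11.15 with pandas 2.3.3 summarised the fits and matplotlib 3.10.9 drew the plots. Promoter windows came from RefSeq annotation of GRCm38.p6. One label field names another treatment time, whereas titles and protocol give 34 h, which was used.

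Alternatives were quantile normalisation repeated, centring on array medians, shifts by spike-ins or by Btf3 and Ppia, array weights, a filter on dim probe sets, the mean of a gene's probe sets, no minimum fold, the groups compared alone, the methods' t-test, Xist level as covariate, a replicate block and leaving out each animal.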

Additional observations from a re-analysis of the deposited data

Results flagged for a closer look

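The TM response differed between genotypes for 16 proteasome genes by the interaction test of limma (adjusted p under 0.05, over 1.5-fold). Given as the Atf6a-/- response minus the wild-type response on the log2 scale, the difference was 0.84 for Psma1, 0.60 for Psma2, 0.95 for Psmb2, 0.81 for Psmb4 and 0.80 for Psmb6 among core genes. Among regulatory genes it was 0.79 for Psmc1, 1.44 for Psmc2, 0.90 for Psmd5, 1.41 for Psmd8 and 1.08 for Psmd11. It was 1.26 for Psme3 and -1.01 for Psme1, 1.36 for Psmg2, 1.06 for Psmg3, 0.84 for Psmg4 and 0.93 for Psmf1. Groups of 3 animals were too small for the test of single samples that lie far from the others.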

How the results depend on the processing

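With 14 proteasome genes called in the wild-type response, the count was 9 after the shift by spike-ins (5 higher, 4 lower), 7 with the groups compared alone and 0 after adjustment of the methods' t-test, and 7 to 15 without each animal. The low ends were reached without wild-type vehicle animal 2 (7), wild-type vehicle animal 3 (8), wild-type TM animal 1 (8) and wild-type TM animal 3 (7). The 16 calls of the Atf6a-/- response became 36 after the shift by spike-ins (32 higher, 4 lower), remained 16 in number with Btf3 and Ppia but as 5 higher and 11 lower in place of 11 and 5, and ran from 15 to 19 without each animal. Between genotypes after TM, 21 calls became 33 with no minimum fold, 38 with spike-ins, 12 with Btf3 and Ppia (6 higher, 6 lower) and 4 after adjustment of the methods' t-test, and ran from 18 to 30 without each animal. The 16 interactions became 5 with Btf3 and Ppia and ran from 11 to 24. Under at least 1 alternative the sign turned for 17 genes in the wild-type response, 28 in the Atf6a-/- response, 14 between genotypes after TM and 15 in the interaction, none of them called in the deposited scaling. Among immune and assembly genes these were, for the first 3 comparisons, Psmb8 between genotypes after TM with spike-ins (0.03), Psme4 with spike-ins in the wild-type response (0.13) and with Btf3 and Ppia in the Atf6a-/- response (-0.42) and between genotypes after TM (-0.02), Psmg1 likewise (0.21, -0.28 and -0.08), and Psmg3 in the wild-type response without wild-type TM animal 2 (-0.13, and up to 0.26 without other animals). Why they moved was not tested.

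Animal numbers were not treated as pairs in the main fit. Deviations of same-numbered animals correlated from -0.18 to 0.373. Differently numbered animals were not compared, so this range does not show whether the numbers pair the samples. With the replicate block, 14, 16, 21 and 14 genes were called in the wild-type response, the Atf6a-/- response, between genotypes after TM and for the interaction, where Psma1 and Psma2 (adjusted p = 0.0507 and 0.0584) and Psmc1 (0.0574) were lost and Psmb3 (0.0489) was gained.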
